A study of Rattus norvegicus with 24 samples.

Results

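The genes described here encode enzymes that remove oxidants or conjugate glutathione, and small proteins that bind metals. They were chosen by name alone: a probe was taken if its gene symbol belongs to the glutathione S-transferases (*Gst*, *Mgst*), glutathione peroxidases (*Gpx*), peroxiredoxins (*Prdx*), superoxide dismutases (*Sod*), thioredoxins (*Txn*), heme oxygenases (*Hmox*), quinone reductases (*Nqo*) or metallothioneins (*Mt*), or is *Gss*, *Gsr*, *Gclc*, *Gclm*, *Srxn1* or *Cat*, and if the gene is not in the study's lists of MHC and NKC genes. This gave 25 of the 8453 probes on a custom Agilent array, which stand for 24 of 7250 genes, and 0 probes were lost to those lists. The rule itself uses names and no measured values, although it was set with earlier results of these data known. Catalase, sulfiredoxin, glutathione reductase, both subunits of glutamate-cysteine ligase and the common metallothioneins were not analysed here.

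The cell keeps oxidants in check with several enzyme systems that draw their electrons from NADPH. Superoxide dismutases turn superoxide into hydrogen peroxide, which glutathione peroxidases and peroxiredoxins reduce to water at the expense of glutathione and thioredoxin, while heme oxygenases break down heme and metallothioneins hold zinc and copper. Many of these genes are induced by the transcription factor NRF2, and in inflamed skin they are active in keratinocytes as well as in the macrophages and lymphocytes that enter the tissue.

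The study asked which genes change in rat skin during a graft-versus-host reaction in culture. Skin explants from the paws of male BN rats, aged 15 weeks, were exposed for 3 days either to lymphocytes of the BN strain (syngeneic) or to lymphocytes of the PVG strain (allogeneic). Before that, both kinds of lymphocytes had spent 7 days in culture together with irradiated spleen cells of the BN strain, a mixed lymphocyte reaction, so that the syngeneic controls carry cultured lymphocytes too. Subcutaneous fat had been trimmed away, and the RNA came from the skin together with any lymphocytes that washing left behind. The labels number the pairs of explants as rats 1 to 12, while the methods call the assays of each kind independent, so that it is not certain that both explants of a pair came from the same animal. The RNA of a pair was hybridized together, on 1 array with the allogeneic sample in Cy5 and the syngeneic sample in Cy3 and on another with the dyes exchanged, so that 24 arrays on 3 slides give n = 12 rats.

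The signs below were set by the dyes that the labels name, which is the reverse of the direction the study gives. The study reports that real-time PCR on part of the same samples gave its array direction for most genes tested. Those genes are not described here. The study also reports genes of T cell and NK cell immunity as higher, where the sums of such markers below were lower in most rats. Whether the dyes are exchanged in the labels was not tested. A negative log2 ratio stands for weaker signal in the allogeneic-labeled explant, and every lower value would read as higher if the sign were turned. A ratio is the mean over both arrays of a rat. Within 1 dye orientation sample and dye cannot be told apart, so values from 1 orientation also hold any dye effect of the probe. Between 74.8% and 99.9% of the probe spots of a sample were well above background, the highest share being from the bright array of rat 10 described below. The number of rats limits the precision. The profile of rat 8 over all probes had a correlation of 0.22 with the mean of the other rats, where the others had 0.53 to 0.83, although its own arrays had a correlation of 0.94 with each other. For rat 10 the arrays had a correlation of 0.13 with each other. Its array with the allogeneic sample in Cy5 was far brighter than the rest. The median spot intensity there was 25642 in the allogeneic sample, where the median over the arrays was 253. For *Prdx1*, *Txnl1*, *Glrx3*, *Gpx3*, *Txn1* and *Txnrd1* the mean without rat 8 is given as well.

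The 9 probes that passed the test, for 8 genes, are shown first by the opening 30 of their 60 bases, because the values of these genes are the signal that hybridized to these sequences.
*Hmox1*: gggctgtcttttgaggggtgggtggtattt
*Hmox2*: agtcctcagaaacagtggcatgttgcatac
*Txn1*: accttccagttctataaaaagggtcaaaag
*Txnrd1*, RefSeq probe: ttttttcattgaagaaccaaatggtttttc
*Txnrd1*, EST probe: atggaattggaatttgggttacagtacatt
*Txnip*: tttgtgtatctttttgtatgattaaaaact
*Gpx1*: cggggggaggtttttccatgacggtgtttc
*Prdx2*: ctacattctaaaggggctggaggctaggcc
*Mt3*: ccaaggccgagaaatgcagctgctgccagt

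These are the sequences of the array files, 5′ to 3′. The array annotation places them on the rat build rn3, and it gives no exon or untranslated region for them. The *Hmox1* probe lies at chr19:13974697-13974756 (+), that of *Hmox2* at chr10:10914212-10914271 (-) and that of *Txnip* at chr2:191323385-191323444 (+). *Gpx1* is at chr16_random:1046407-1046466 (+), *Prdx2* at chr19:24841104-24841163 (-) and *Mt3* at chr19:11289464-11289523 (-). The *Txn1* probe, at chr5:75926523-75927863 (-), is listed over a stretch far longer than itself. The *Txnrd1* probes are 500 bases apart and face opposite ways, the RefSeq probe at chr7:23076435-23076494 (-) and the probe from an expressed sequence tag (EST) at chr7:23075875-23075934 (+). By accession, 21 of the 25 probes matched a current RefSeq gene, and the other 4 kept the name given in the files.

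In the explants labeled as allogeneic the signal of heme oxygenase 1, the thioredoxin genes *Txn1*, *Txnrd1* and *Txnip*, and glutathione peroxidase 1 was lower, that of metallothionein 3 was higher, and most of the remaining antioxidant genes did not pass the test. In the limma fit over all probes, 9 of the 25 antioxidant probes passed an adjusted p of 0.05 (Benjamini-Hochberg), against 17.3% of all probes. Of these, 7 were lower, where 8.48% of all probes were, and 2 were higher, where 8.78% were. Counted by gene, with the probes of a gene averaged, 7 of 24 genes passed, against 16.3% of all genes: 6 were lower, with 7.6% of all genes, and 1 was higher, with 8.68%. The gene that differs between the counts is *Prdx2*, whose adjusted p was 0.0485 over probes and 0.0504 over genes. In bulk RNA, fewer cells of a type and less RNA per cell cannot be told apart.

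The antioxidant probes had larger ratios and a wider spread than the array as a whole. The median size of the log2 ratio was 0.15 over the antioxidant probes and 0.049 over all probes, and the median SD between rats was 0.24 against 0.13. Brightness moved with this difference, and its part in it was not tested: 24 of the 25 antioxidant probes were well above background in both samples on all 24 arrays, and among the 6117 array probes for which that held 20.5% passed the test, with a median size of 0.072. The medians of the signed ratio, -0.030 over the antioxidant probes and 0.011 over all probes, were both close to 0. In the plot of all 25 probes by rat, most of the probes straddle 0, while the ones that passed have nearly all rats on 1 side.

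**Figure D1:**
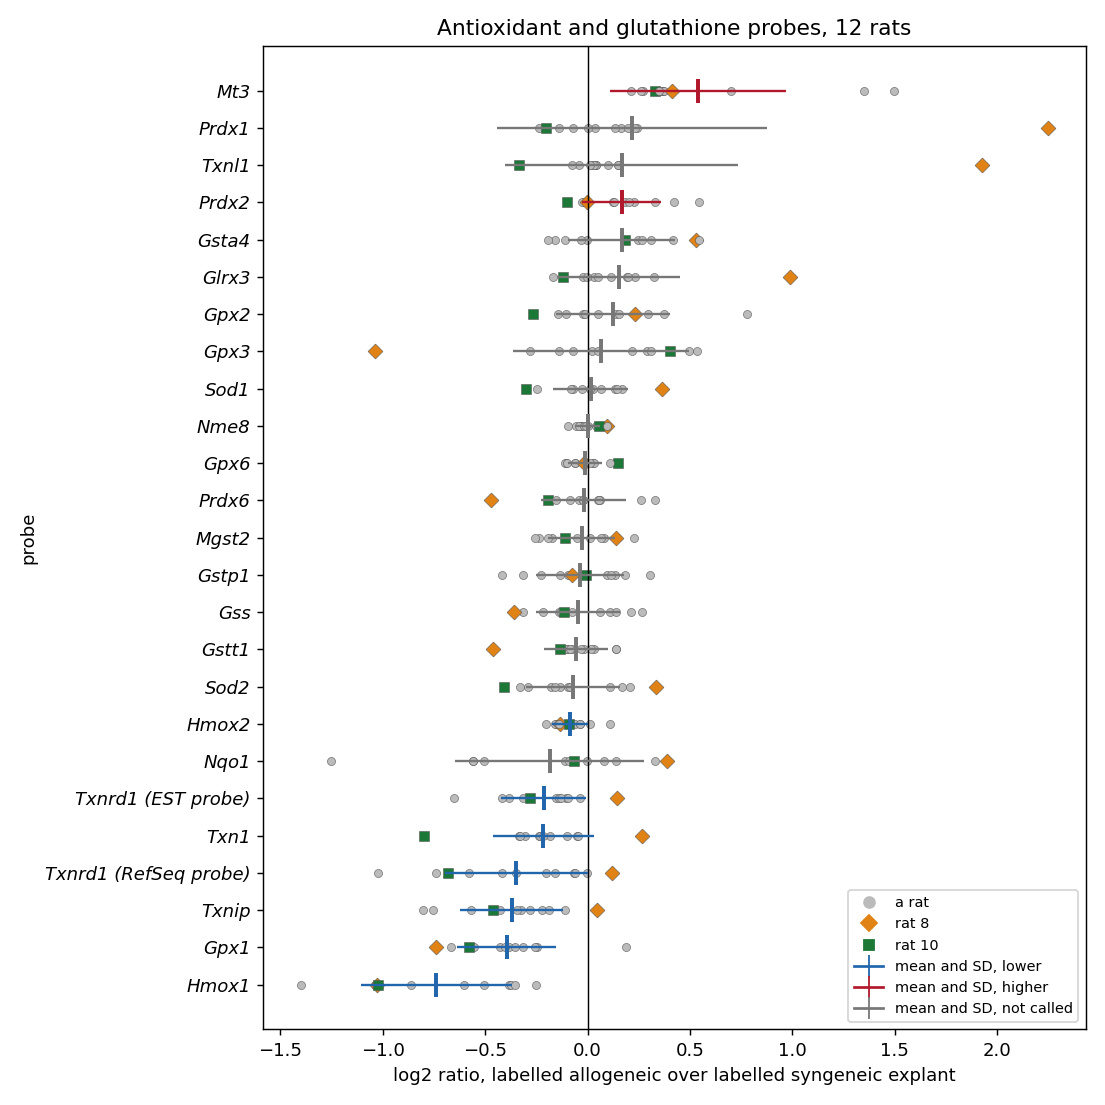
Log2 ratio (labeled allogeneic over labeled syngeneic explant, x axis) of each of the 25 antioxidant and glutathione probes (y axis, ordered by mean) in each of the 12 rats, with the mean and SD drawn over the points and rats 8 and 10 marked. *Hmox1* lies below 0 and *Mt3* above 0 in all 12 rats, and rat 8 stands far to the right for *Prdx1*, *Txnl1* and *Glrx3*.

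*Hmox1*, the inducible enzyme that opens the heme ring, had the most negative mean of the group. Its log2 ratio in the 12 rats ran from -1.40 through a median of -0.73 to -0.25. All 12 rats were lower in the allogeneic-labeled explant. The mean was -0.74 ± 0.37 (SD, n = 12 rats), 1.67-fold lower, with a standard error of 0.10 and an adjusted p of 4.13e-04 in the limma fit. The levels of the groups overlapped across rats, as the plot of levels shows, while the line of each rat falls.

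The *Hmox1* mean was not equal in the dye orientations, a difference that was not tested. It was -0.26 where Cy5 marked the allogeneic sample, which did not pass the test (adjusted p = 0.0793 by limma), and -1.21 where Cy3 did. On the former arrays the median spot intensity of *Hmox1* was 124712 in the allogeneic sample (Cy5) and 52525 in the syngeneic sample (Cy3). With the dyes exchanged it was 31498 in the allogeneic and 198553 in the syngeneic sample. *Hmox1* was among the bright spots, with a highest intensity of 317293 where the brightest spot on any array had 565976, and it was marked saturated on 0 arrays. By slide the mean was -0.47, -0.86 and -0.88, so that the direction was the same on each.

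*Hmox2*, the heme oxygenase that is present without induction, had ratios from -0.20 through a median of -0.11 to 0.11, lower in 10 of 12 rats. Its mean of -0.087 ± 0.088 (SD, n = 12 rats) passed the test by limma (adjusted p = 0.0356), but the value was 0.024 in the Cy5 orientation and -0.20 in the Cy3 orientation. Removing rat 1, 2, 3, 5, 10, 11 or 12 ended the call, the adjusted p reaching 0.0761. *Nqo1*, which reduces quinones and is a textbook target of NRF2, ranged from -1.25 through -0.079 to 0.39 and did not pass (mean -0.18 ± 0.46, adjusted p = 0.358 from limma). The slides differed for *Nqo1*, with means of -0.51, -0.080 and 0.037. The 95% interval of its mean, -0.48 to 0.11, holds both no change and a decrease like that of *Gpx1*.

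In the thioredoxin system 3 of 6 genes passed the test, all lower, where 7.6% of all genes were lower. *Txn1*, the small protein that passes electrons to peroxiredoxins, had ratios from -0.80 through a median of -0.22 to 0.26. *Txnrd1*, the NADPH-dependent enzyme that recharges it, ran from -1.02 through -0.28 to 0.12 with its RefSeq probe and from -0.65 through -0.15 to 0.14 with its EST probe. *Txnip*, which binds thioredoxin and blocks it, ran from -0.80 through -0.34 to 0.046. For each of these 4 probes 11 of 12 rats were lower, and the exception was rat 8 every time.

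The mean was -0.37 ± 0.25 for *Txnip* (SD, n = 12 rats; adjusted p = 0.00287 from limma). It was -0.35 ± 0.35 and -0.21 ± 0.21 for the RefSeq and EST probes of *Txnrd1* (adjusted p = 0.0230 and 0.0212) and -0.22 ± 0.25 for *Txn1* (adjusted p = 0.0451). The enzyme, its substrate and the inhibitor of that substrate each had a lower mean signal, and whether they changed jointly was not tested. Averaged over its probes, *Txnrd1* was -0.28 ± 0.27 (adjusted p = 0.0209 over all genes), and the fall was deepest on the slide of rats 9 to 12, at -0.72 with the RefSeq probe, against -0.20 and -0.12 on the other slides. The EST probe is listed on the plus strand. The RefSeq probe and, on build GRCr8, the *Txnrd1* promoter are listed on the minus strand. The averaged value includes both probes, and whether the EST probe reads the *Txnrd1* transcript was not tested. Without rat 8 the gene-level mean of *Txnrd1* was -0.32 and that of *Txn1* was -0.26, with adjusted p of 0.00556 and 0.00612.

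The *Txn1* call was the least secure of the 3. It was -0.36 in the Cy5 orientation and -0.071 in the Cy3 orientation (adjusted p = 0.429 by limma). On the bright Cy5 array of rat 10 *Txn1* was -1.28, and on the other array of that rat -0.32. The call did not survive the removal of any rat except 8 or 10, the adjusted p reaching 0.0875. The RefSeq probe of *Txnrd1* lost its call without rat 2 or rat 9 (highest adjusted p = 0.0526). It was -0.53 in the Cy5 and -0.16 in the Cy3 orientation, where it did not pass (adjusted p = 0.298), and the EST probe was -0.15 in the Cy5 orientation, where it did not pass (adjusted p = 0.128), and -0.28 in the Cy3 orientation. With the EST probe rat 10 had 0.22 on its bright Cy5 array and -0.78 on the other. The EST probe is dim, with a median intensity of 109 in Cy3. Its mean was -0.37 with the processed signals and -0.36 in the deposited table. By contrast, the call of *Txnip* held without each rat, with means from -0.41 to -0.33. The 3 further genes named as thioredoxins, *Txnl1*, *Glrx3* (*Txnl2* in the files) and *Nme8* (*Txndc3*), did not pass, with means between 0.00047 and 0.17. Without rat 8 the mean of *Txnl1* went from 0.17 to 0.0075 and that of *Glrx3* from 0.15 to 0.076. *Nme8* was near background: in each sample, 2 of the 24 arrays had it well above.

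**Figure D2:**
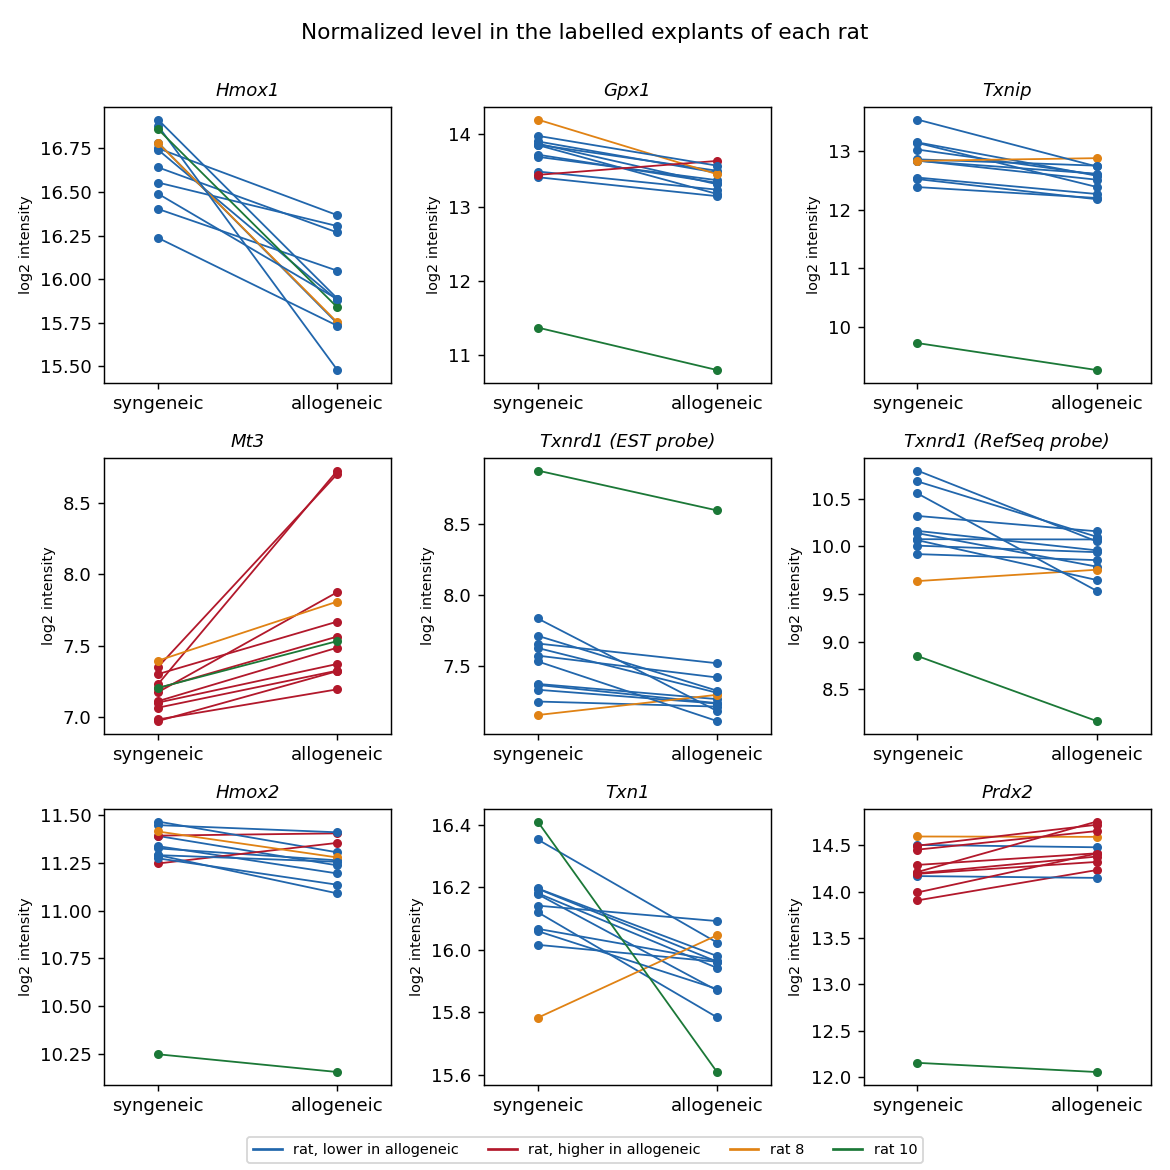
Normalized log2 intensity (y axis) of the 9 probes that passed the test, in the explants labeled syngeneic and allogeneic (x axis) of each of the 12 rats, 1 line per rat and panel. Lines fall for *Hmox1*, *Gpx1*, *Txnip*, *Txnrd1*, *Hmox2* and *Txn1* in at least 10 rats and rise for *Mt3* in all 12, and rat 10 lies apart in level for *Gpx1*, *Txnip*, *Txnrd1*, *Hmox2* and *Prdx2* in both explants.

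Among the 4 glutathione peroxidases, 1 passed, where 16.3% of all genes did. *Gpx1*, the cytosolic selenoenzyme found in most cells, ran from -0.74 through a median of -0.39 to 0.19. It was lower in 11 of 12 rats, the exception being rat 11. The mean of -0.39 ± 0.24 (SD, n = 12 rats) is a 1.31-fold decrease, with a standard error of 0.066 and an adjusted p of 0.00148 in the limma fit. This was one of the steadier values of the group: it was -0.47 and -0.32 in the dye orientations, between -0.52 and -0.30 on the slides, and -0.45 to -0.36 over the 12 fits that omit a rat, all of which passed the test.

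*Gpx2*, a form found in epithelia, ranged from -0.26 through 0.093 to 0.78 (mean 0.12 ± 0.28, adjusted p = 0.312). *Gpx3*, the secreted plasma form, ranged from -1.04 through 0.13 to 0.53 (mean 0.065 ± 0.43, adjusted p = 0.760), and its lowest value was from rat 8, without which the mean was 0.17 (adjusted p = 0.127). *Gpx6* lay between -0.11 and 0.15 in all rats and did not pass either. The interval for *Gpx2*, -0.055 to 0.30, lies above that for *Gpx1*, -0.55 to -0.24. Whether these genes differ from *Gpx1* was not tested.

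The peroxiredoxins did not pass as lower, and 1 of their 3 probes passed as higher, where 8.78% of all probes did. *Prdx2* ran from -0.10 through 0.15 to 0.54, higher in 8 of 12 rats, with a mean of 0.17 ± 0.19 (SD, n = 12 rats) and an adjusted p of 0.0485 in the limma fit. That call was marginal: the value was 0.018 in the Cy5 and 0.32 in the Cy3 orientation. On the bright Cy5 array of rat 10 *Prdx2* was -0.71, and on the other array of that rat 0.51. The adjusted p was over the threshold without rat 1, 2, 4, 5, 7, 9, 11 or 12 (highest 0.101 by limma). *Prdx1* had a median of 0.083 and ranged from -0.24 to 2.25 (adjusted p = 0.461), and *Prdx6* had a median of -0.022 and ranged from -0.47 to 0.33 (adjusted p = 0.859). Without rat 8, *Prdx1* had a mean of 0.032 where it was 0.22 with all 12.

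The superoxide dismutases did not pass the test over both dye orientations. The cytosolic, copper- and zinc-dependent *Sod1* ranged from -0.30 through 0.017 to 0.36 (mean 0.015 ± 0.18, adjusted p = 0.880 from limma). The mitochondrial, manganese-dependent *Sod2*, a gene that inflammatory cytokines induce, ranged from -0.41 through -0.11 to 0.33 (mean -0.072 ± 0.23, adjusted p = 0.493). Their 95% intervals, -0.10 to 0.13 and -0.22 to 0.074, leave room for changes smaller than that of *Gpx1* only. *Sod1* had opposite signs in the dye orientations, -0.12 in Cy5 and 0.15 in Cy3. The latter passed on its own (adjusted p = 0.0187 by limma), as did 29.6% of all probes in that orientation. On the bright Cy5 array of rat 10 *Sod1* was -0.84, and on the other array of that rat 0.24.

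Glutathione synthetase and the glutathione transferases, which join glutathione to foreign or oxidized compounds, did not pass the test. *Gss*, which completes the synthesis of glutathione, ranged from -0.36 through -0.096 to 0.27 (mean -0.047 ± 0.20, adjusted p = 0.624). *Gstp1*, the pi-class transferase, ranged from -0.42 through -0.042 to 0.30 (mean -0.037 ± 0.22, adjusted p = 0.726). The 3 further transferases *Gsta4*, *Gstt1* and *Mgst2* had means of 0.17, -0.058 and -0.030, and the lowest adjusted p among them was 0.136, for *Gsta4*. Over all 16 probes that did not pass, the means lay between -0.18 and 0.22.

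*Mt3* was the gene of the group with a clear increase in the allogeneic-labeled explant. This metallothionein is best known from the brain, where it binds zinc and copper. Its log2 ratio ran from 0.21 through a median of 0.36 to 1.49, above 0 in all 12 rats, with a mean of 0.54 ± 0.43 (SD, n = 12 rats), 1.45-fold higher, a standard error of 0.12 and an adjusted p of 0.00674 in the limma fit. The spread came from rats 1 and 3, at 1.49 and 1.35, while the other 10 lay between 0.21 and 0.70. Both of these rats were on the slide with the highest mean, 0.87 against 0.46 and 0.29.

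*Mt3* hardly depended on the dye, with 0.55 and 0.53 in the orientations, and it passed in all 12 fits that omit a rat, at 0.45 to 0.57. The spot was dim, with a median intensity of 108 in Cy3 and 189 in Cy5, although it was well above background on every array. The size of the change was 0.52 without background correction, but 0.94 with the processed signals of the scanner software, which change background and dye normalization together, and 0.84 in the deposited table of log2 ratios. Whether the probe also detects other metallothionein transcripts was not tested.

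In the plot of the dye orientations, *Gpx1*, *Txnip* and *Mt3* lie near the line of equal values and *Hmox1* far below it. Of the 25 probes, 6 had opposite signs in the orientations. Among them are *Hmox2*, which passed with both combined, and *Prdx1* (0.49 and -0.054), *Prdx6* (-0.16 and 0.12) and *Sod1*, which did not. In the Cy5 orientation alone *Prdx6* passed as lower (adjusted p = 0.0138 by limma), and *Gsta4* (0.26, adjusted p = 0.0146) and *Glrx3* (0.24, adjusted p = 0.0476) passed as higher, where 31.5% of all probes passed.

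**Figure D3:**
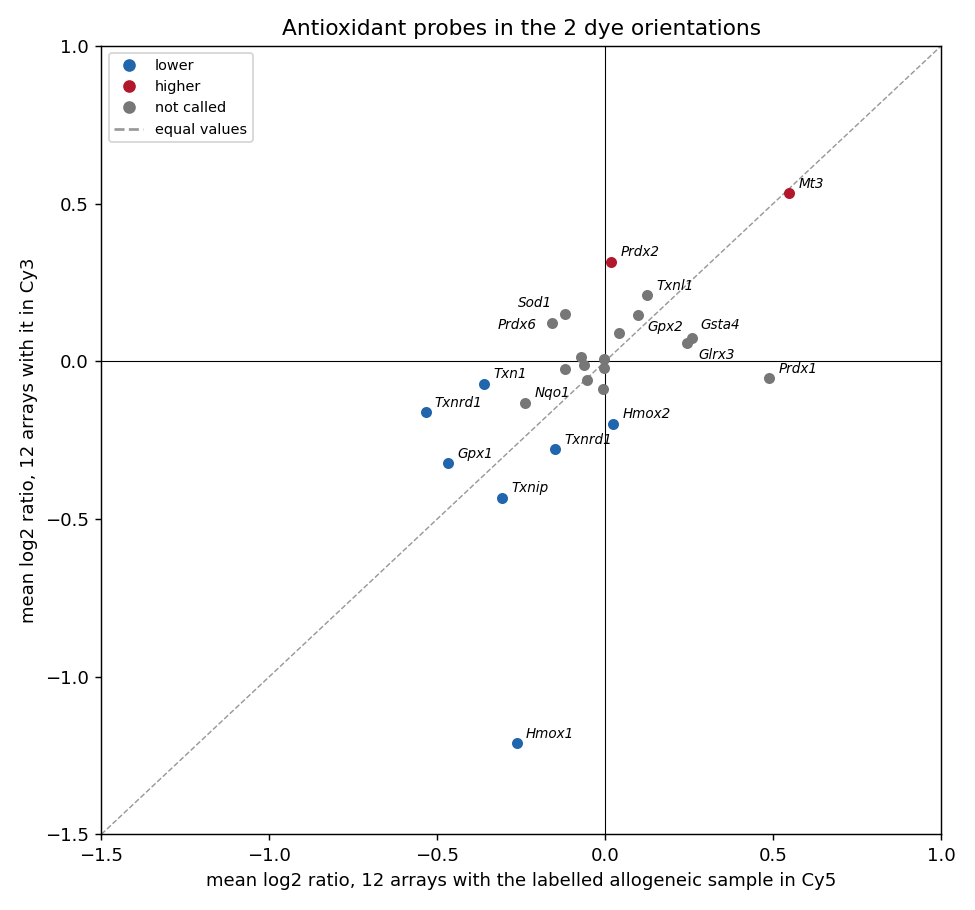
Mean log2 ratio of each of the 25 probes on the 12 arrays with the labeled allogeneic sample in Cy5 (x axis) and on the 12 arrays with it in Cy3 (y axis), colored by the test over both, with the line of equal values dashed and probes close to 0 on both axes unnamed. *Mt3*, *Gpx1* and *Txnip* are near the line, *Hmox1* is at -0.26 and -1.21, and *Prdx2* and *Hmox2* lie close to 0 on the x axis.

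Rat 8 stood apart in this group of genes as it did over the whole array. For 9 of the 25 probes it was the rat farthest from the median of the 12, more often than any other rat. *Prdx1* was at 2.25 in rat 8 where the other rats lay between -0.24 and 0.24, *Txnl1* at 1.93 where they lay between -0.34 and 0.15, and *Glrx3* at 0.99 where they lay between -0.17 and 0.32. *Txnl1* and *Glrx3*, both named here after their values were seen, are relatives of thioredoxin.

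Both arrays of rat 8 gave these values. *Prdx1* was 2.47 and 2.03 on them, *Txnl1* 1.94 and 1.91, and *Gpx3* -0.97 and -1.10, and 20 of the 25 probes had the same sign on both. *Gpx1* had its lowest value of all rats in rat 8, at -0.74, and *Hmox1* was at -1.03 there. Without rat 8 the same 9 probes passed the test, while the share over the whole array rose to 24.7%. Without rats 8 and 10 together 8 of 25 passed, with 25.2% of all probes, and the one lost was *Hmox2* (adjusted p = 0.0653).

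The other genes of the pathway were described with 6 lists of oxidant sources, NADPH supply, NRF2 regulators, NRF2 target enzymes, glutathione breakdown and metal handling. Of the 31 listed genes on the array, 6 passed in the fit over genes, 4 lower and 2 higher, which is 19.4% against 16.3% of all genes. The median ratio was -0.0045 over the 31 genes and 0.012 over all genes. Most of these lists are thinly covered, with 2 to 10 genes each on the array.

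Among 5 oxidant sources the change was in *Ncf1*, the p47phox subunit that activates the NADPH oxidase of phagocytes. It ranged from -1.82 through -0.96 to -0.48, lower in all 12 rats, with a mean of -1.07 ± 0.38 (SD, n = 12 rats) and an adjusted p of 6.29e-05 in the limma fit. In size this mean was above those of all 24 antioxidant genes, a difference that was not tested. *Mpo*, *Nos2*, *Duox1* and *Alox15* did not pass, with means between -0.061 and 0.065.

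Of the 10 NRF2 regulators on the array 3 passed, all lower, where 7.6% of all genes were lower. *Sqstm1*, an adaptor protein of autophagy that binds KEAP1, had a mean of -0.19 ± 0.090 and was below 0 in all 12 rats (adjusted p = 4.44e-04). The small MAF proteins *Mafk* and *Maff*, DNA-binding partners of NRF2, were lower in 11 and 10 of 12 rats, at -0.23 ± 0.12 and -0.21 ± 0.22 (adjusted p = 6.11e-04 and 0.0332). *Maff* was -0.58 in the Cy5 and 0.17 in the Cy3 orientation, and it lost its call without rat 2, 4, 5, 7, 9, 11 or 12 (highest adjusted p = 0.0683).

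*Nfe2l2*, which encodes NRF2, depended on rat 8. Its ratio was 2.33 in rat 8 and lay between -0.27 and -0.042 in the other 11 rats, all of them lower. Over 12 rats the mean was 0.061 ± 0.72 (adjusted p = 0.873 by limma), and without rat 8 it was -0.15 (adjusted p = 0.00127). In the same way *Cul3*, the ubiquitin ligase scaffold that works with KEAP1, was 1.61 in rat 8, and its mean fell from 0.34 to 0.23 without it while the adjusted p went from 0.0577 to 0.00115. *Crebbp* and *Tfrc* did not pass with all rats and passed without rat 8, both lower, at -0.096 and -0.29, and the number of listed genes that passed rose from 6 to 10 while the share over all genes rose from 16.3% to 24.2%. These 4 genes were chosen after their values were seen.

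Higher signal was found for *Abcc1*, the pump that exports glutathione conjugates, at 0.48 ± 0.30 in 11 of 12 rats (adjusted p = 0.00170). It was also found for *Hamp*, the iron hormone hepcidin, by a small amount of 0.079 ± 0.068 in 11 of 12 rats (adjusted p = 0.0210). *Abcc1* did not pass in the Cy5 orientation (0.22) and *Hamp* did not in the Cy3 orientation (0.0080). The iron store *Fth1*, another NRF2 target, had a mean of -0.23 ± 0.35 and did not pass (adjusted p = 0.123).

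**Figure D4:**
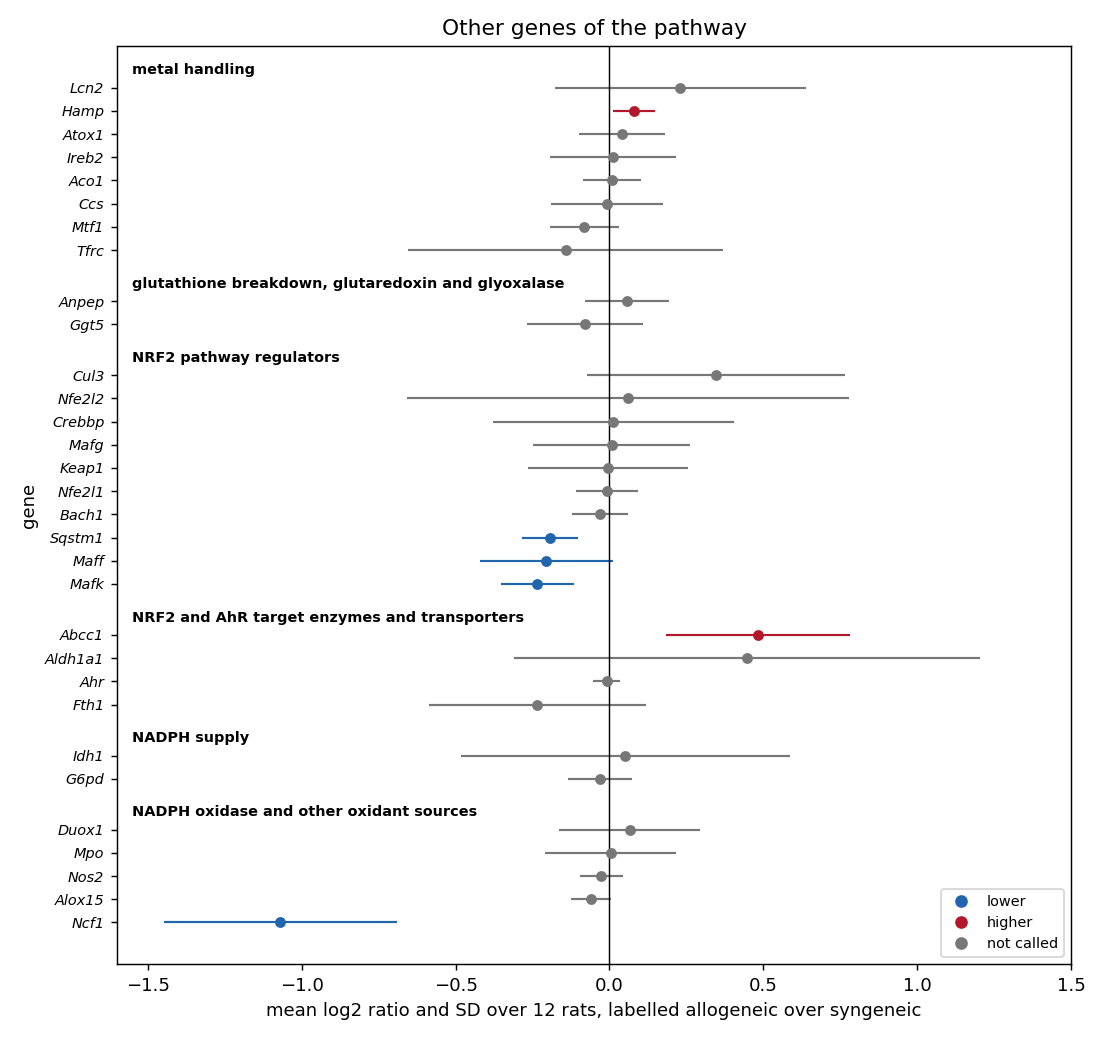
Mean log2 ratio and SD over the 12 rats (x axis) of the 31 other genes of the pathway on the array (y axis), grouped by list and colored by the test. *Ncf1* is lowest at -1.07 and *Abcc1* highest at 0.48, and the wide bar of *Nfe2l2* holds the single value of 2.33 in rat 8.

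Markers of the cell types that such explants can hold were summed in each explant, and their single genes are read against the 8.68% of all genes that passed as higher and the 7.6% that passed as lower. Of 12 myeloid markers 5 were on the array, *Tyrobp* and *Csf1r* passed as lower, and the summed normalized intensity of the 5 was 12053 to 27676 in the allogeneic-labeled samples and 15345 to 42712 in the syngeneic ones, lower in 12 of 12 rats. *Cd163* (0.18) and *Cd14* (0.011) were higher in 9 and 7 rats and did not pass. For 6 NK cell markers it was 1636 to 2259 and 1749 to 2998, also lower in 12 of 12 rats, with 3 genes passing as lower. For 11 T cell markers the sums were 3231 to 8042 and 3593 to 9878, lower in 9 of 12 rats, with 4 genes passing as lower. The 4 B cell markers summed to 426 to 1865 and 462 to 2145, lower in 7 rats, with no gene passing.

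The sums of keratinocyte and endothelial markers were higher in nearly all rats, and that of fibroblast markers in 7 of 12. Of 17 keratinocyte markers 3 were on the array. Their sum was 83281 to 157878 in the allogeneic-labeled and 23763 to 119559 in the syngeneic samples, higher in 11 of 12 rats, with *Perp* passing. *Tp63* (median 0.073) and *Dsc3* (median -0.011) were higher in 7 and 6 rats and did not pass. In such a sum the brightest genes weigh most. Endothelial markers (5 genes) summed to 7801 to 32302 and 6630 to 26356, higher in 12 of 12 rats, and fibroblast markers (5 genes) to 8200 to 69184 and 7309 to 70266, higher in 7. Among the endothelial genes *Cdh5* and *Pecam1* passed as higher, and among the fibroblast genes *Pdgfrb* and *Col1a2* passed as higher (0.43 and 0.55) and *Fn1* as lower (-0.36). In the adipocyte list *Adipoq* passed as higher and *Fabp4* as lower, and the sum of its 4 genes was higher in 7 rats, while the 2 muscle genes did not pass and had a sum that was lower in 9 rats. No listed marker on the array was below background throughout, but for this a single array was enough. On 1 array of rat 10, 99.9% of the spots were well above background in the allogeneic sample. The count therefore says little about detection on the other arrays. The part of these cell types in the results for *Hmox1*, *Ncf1* and the other genes was not tested.

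Since many genes of these families are regulated through shared motifs, their promoters were searched. RefSeq promoters on build GRCr8, from 250 bases before to 50 after the start, were at hand for 19 of the 24 genes (21 promoters, since a gene can have more than 1 start), and not for *Hmox1*, *Txnip*, *Prdx6*, *Gstt1* and *Mgst2*. The core of the antioxidant response element, TGACNNNGC on either strand, was found in 6 of the 21, those of *Txnrd1*, *Hmox2*, *Gstp1*, *Prdx1*, *Gpx2* and *Sod2*, and in 12.1% of all 33469 promoters. Of these 6 genes, *Txnrd1* and *Hmox2* had passed as lower, while 6 of the 19 genes with a promoter had passed in either direction. The AP-1 site TGACTCA overlaps it in *Gstp1* and *Prdx1*, and 4.63% of all promoters hold that site. The 250 bases before the start are shown for *Txnrd1* and *Hmox2*, which passed, and for *Gstp1*, which did not, with the antioxidant element core in capitals.
*Txnrd1*: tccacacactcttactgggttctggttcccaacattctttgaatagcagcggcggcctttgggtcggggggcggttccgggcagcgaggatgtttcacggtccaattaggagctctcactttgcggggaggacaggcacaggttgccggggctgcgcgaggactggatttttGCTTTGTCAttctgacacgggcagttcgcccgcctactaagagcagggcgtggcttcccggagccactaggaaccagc
*Hmox2*: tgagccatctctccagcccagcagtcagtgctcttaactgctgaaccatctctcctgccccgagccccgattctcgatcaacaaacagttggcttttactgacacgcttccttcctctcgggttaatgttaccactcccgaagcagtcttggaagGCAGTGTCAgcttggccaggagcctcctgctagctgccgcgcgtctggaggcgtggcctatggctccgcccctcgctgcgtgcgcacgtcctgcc
*Gstp1*: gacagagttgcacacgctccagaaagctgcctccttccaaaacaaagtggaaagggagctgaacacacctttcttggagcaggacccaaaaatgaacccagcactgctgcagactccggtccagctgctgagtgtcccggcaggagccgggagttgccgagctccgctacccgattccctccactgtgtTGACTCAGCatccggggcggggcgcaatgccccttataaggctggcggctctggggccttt

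These lie on the minus strand at chr7:22755905-22756154 for *Txnrd1*, which has another listed start without a match, at chr10:11337613-11337862 for *Hmox2*, and at chr1:210769706-210769955 for *Gstp1*. The core begins at position -78, -95 and -61 relative to the start, in the same order. The core of the metal response element, which binds the zinc sensor MTF1, was searched in both its forms on both strands. TGCACNC was found in 3 of the 21 promoters and in 12.2% of all, and TGCGCNC in 5 and in 14.1%. *Mt3* holds 3 matches, which are in capitals in the 250 bases before its start at chr19:10856081-10856330, minus strand.
*Mt3*: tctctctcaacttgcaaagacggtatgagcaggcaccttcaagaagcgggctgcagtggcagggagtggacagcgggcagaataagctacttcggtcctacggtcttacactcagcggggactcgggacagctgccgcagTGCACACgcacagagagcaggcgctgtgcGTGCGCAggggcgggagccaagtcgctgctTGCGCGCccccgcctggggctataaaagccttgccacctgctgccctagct

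*Mtf1* itself was on the array and did not pass (-0.082 ± 0.11, adjusted p = 0.105 from limma). *Gstp1* and *Gsta4* also hold the first form and *Gstp1*, *Hmox2*, *Glrx3* and *Txnl1* the second, and of these *Hmox2* alone passed the test. A match is a string of letters in this window, and binding was not measured.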

How the data were processed

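Per the file headers, the spot intensities of the 24 two-color arrays came from Agilent's Feature Extraction 9.5.1.1, and the authors deposited them as scanner output. A table of log2 ratios was deposited as well, which the authors normalized by loess per the methods; the submitters' processing notes name limma. It served as an alternative, and its columns, titled stimulated against nonstimulated, correlated at 0.707 to 0.955 with the turned scanner ratios. Its background treatment is not given in the sources used here. The labels and the methods name different labeling kits.

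Mean intensities were background-corrected (normexp, offset 50) and loess-normalized within arrays in limma 3.58.1 (R 4.3.3), without control and outlier spots. Ratios were turned to allogeneic over syngeneic and averaged over spots and over both arrays of a rat. The rat means were tested against 0 (lmFit, eBayes) with Benjamini-Hochberg adjustment over 8453 probes or 7250 genes, at 0.05. The replicate was the rat. Intervals are t intervals of the rat means. On simulated data with 200 changed probes, the fit recovered 87% of them. The share was 68.7% for the smallest planted changes, 92.5% for the middle size and 100% for the largest. The simulated noise between rats was normal and independent, with no rat or array set apart, so these shares need not hold for these data.

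Named were all genes that passed and a set of textbook antioxidant genes whatever their values, with the passing genes of each pathway list. Members and lists were chosen with earlier results of these data known. Alternatives covered background, normalization, dye orientation, dim and outlier spots, slide, the deposited table, a signed-rank test and omitted rats. Another was an ANOVA-type test of the rat means, which approximates the mixed-effects model of the methods and does not rerun it. The pairing of explants lies within each array. Promoters are from RefSeq (GRCr8).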

Additional observations from a re-analysis of the deposited data

How the results depend on the processing

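The number of antioxidant probes that passed was 9, and it was 6 to 9 under the alternatives in processing and testing and 5 to 9 with each rat left out, the 5 being without rat 2. For genes it was 7, with 5 to 8 under both kinds. Of the 31 other pathway genes 6 passed, with 5 to 10 as each rat was left out (10 without rat 8), 15 with the allogeneic sample in Cy5 only, when 30.2% of all genes passed, and 11 without rats 8 and 10 together (24.5% of all genes), an alternative chosen after seeing the data. *Gpx1*, *Txnip* and *Mt3* passed under all alternatives, and *Hmox1* under all but the Cy5 orientation alone. With the slide as a block *Hmox2*, *Txn1* and *Prdx2* did not pass (adjusted p = 0.0538, 0.0578 and 0.0783 by limma). The cause of these differences was not tested.

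Signs turned for small values. With the processed signals *Gpx6* was 0.0030 and *Nme8* -0.18, with median centering *Gpx6* was 0.020, *Nme8* -0.044 and *Sod1* -0.10, and without background correction *Nme8* was -0.0085. In the Cy5 orientation alone *Hmox2* was 0.024, *Nme8* -0.0049, *Sod1* -0.12 and *Nfe2l2* -0.018. In the Cy3 orientation alone *Mgst2* was 0.012, *Prdx1* -0.054, *Prdx6* 0.12, *Crebbp* -0.020 and *Maff* 0.17. With each rat left out, *Nme8* ran from -0.0081 to 0.0092, *Prdx6* from -0.051 to 0.022, *Sod1* from -0.017 to 0.043, *Crebbp* from -0.096 to 0.038 and *Nfe2l2* from -0.15 to 0.091. Without rats 8 and 10 together *Nme8* was -0.015, *Prdx6* 0.043, *Crebbp* -0.10 and *Nfe2l2* -0.15.

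Turning single rats that correlate below -0.3 with the others applied to no rat and was not run. The main test was a paired one, since every ratio compares the explants of a pair within an array, and no further block by replicate number was fitted. Signal over background limits *Nme8*, and the dim probe of *Mt3* and the EST probe of *Txnrd1* moved by over 1.5 times with the processed signals and the deposited table.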
